A study of Mus musculus with 4 samples.

Results

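The genes described here are 10 members of the Notch pathway, the receptors Notch1, Notch2 and Notch3, the ligands Jag1, Jag2 and Dll1, the DNA-binding protein Rbpj and the target genes Hes1, Hey1 and Nrarp. They were taken by gene symbol from the 22565 protein-coding genes of the deposited table, and all 10 were found once. RNA came from alveolar epithelial type II (AT2) cells, which make the lung's surfactant, isolated by flow cytometry from untreated mouse lungs at 6 months of age. WT, for wild type, had 2 libraries, and KO, for knockout of Fbxo45, also had 2; Fbxo45 encodes an F-box protein, which picks the targets of a ubiquitin ligase. The growth protocol calls these mice Fbxo45-cKO, while the genotype field reads Fbxo45 knockout for KO replicate 1 and Fbxo46 knockout for KO replicate 2. By title both are KO. Left unsaid are the strain, the sex, what drives the deletion and whether each library came from its own mouse: none of these is given in the sources used here, so the tests rest on a spread between libraries that may be technical.

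Notch signalling passes between touching cells. A ligand of the Jagged or Delta family on one cell binds a Notch receptor on the next, the receptor is cut by an ADAM protease and then by the gamma-secretase complex, and the freed intracellular part enters the nucleus. There it joins RBPJ, which otherwise holds target genes silent, and turns on genes such as Hes1, Hey1 and Nrarp. In the lung, Notch is known for directing airway progenitors towards secretory rather than ciliated cells, and Notch2 is known for acting in AT2 cells while alveoli form.

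Depth ran from 4167114 fragments in WT replicate 1 to 9507432 in KO replicate 1. Fbxo45 itself had overlapping groups. It measured 4.6 and 5.91 FPKM (fragments scaled to transcript length and library total) in WT against 4.41 and 7.58 FPKM under the KO label, and Fbxo46 measured 4.13 and 3.79 FPKM in WT against 3.82 and 4.8 FPKM. Values per gene do not resolve a deleted exon, so every direction below is that of libraries labelled KO. The 12 AT2 markers summed to between 106858 and 158980 FPKM, lowest in KO replicate 1. Markers of endothelial cells and of smooth muscle and pericytes were mostly low. Of 10 endothelial markers 8 stayed under 1 FPKM in every library, as did 6 of 8 smooth muscle and pericyte markers. The endothelial sum was 7.44 to 11.4 FPKM in WT and 8.15 to 11.5 FPKM in KO. Cdh5, Tie1 and Emcn were listed at 0 outside KO replicate 1. Markers of club cells, which also use Notch, had sums of 3816 to 5524 FPKM, most of it from Cbr2, and are given below. KO replicate 1 stood apart by 9 fast skeletal muscle genes, which summed to 1155 FPKM there and to at most 10.3 FPKM in the other 3 libraries.

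The cells sorted as AT2 carried, in bulk, RNA of a single main ligand and a pair of receptors. Fibroblast markers summed to 15.4 to 38.8 FPKM in the same libraries, and the part of other cells in these levels was not tested. By mean FPKM over the 4 libraries the order was Notch2 (33.5), Jag1 (23.5), Hes1 (22.1), Notch1 (21.3), Rbpj (13.1), Jag2 (2.05), Nrarp (1.09), Dll1 (0.653), Hey1 (0.22) and Notch3 (0.0477). Notch2 ranged from 30.9 to 36.4 FPKM and overlapped only with Notch1, which ranged from 12.9 to 33.7 FPKM. Jag1, Hes1 and Notch1 overlapped with one another and were not separated in level. Rbpj overlapped with Hes1 and Notch1, and its lowest value, 9.41 FPKM, was above the highest of Jag2, 2.86 FPKM. Jag2, Nrarp and Dll1 overlapped, and Hey1 and Notch3 at the bottom overlapped with each other and with Dll1. Mean levels of 84% of the tested genes lay below that of Notch2, against 10.1% for Jag2. Jag1 made up between 81.9% and 94.7% of the FPKM of the 5 Jagged and Delta genes in each library.

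**Figure D1:**
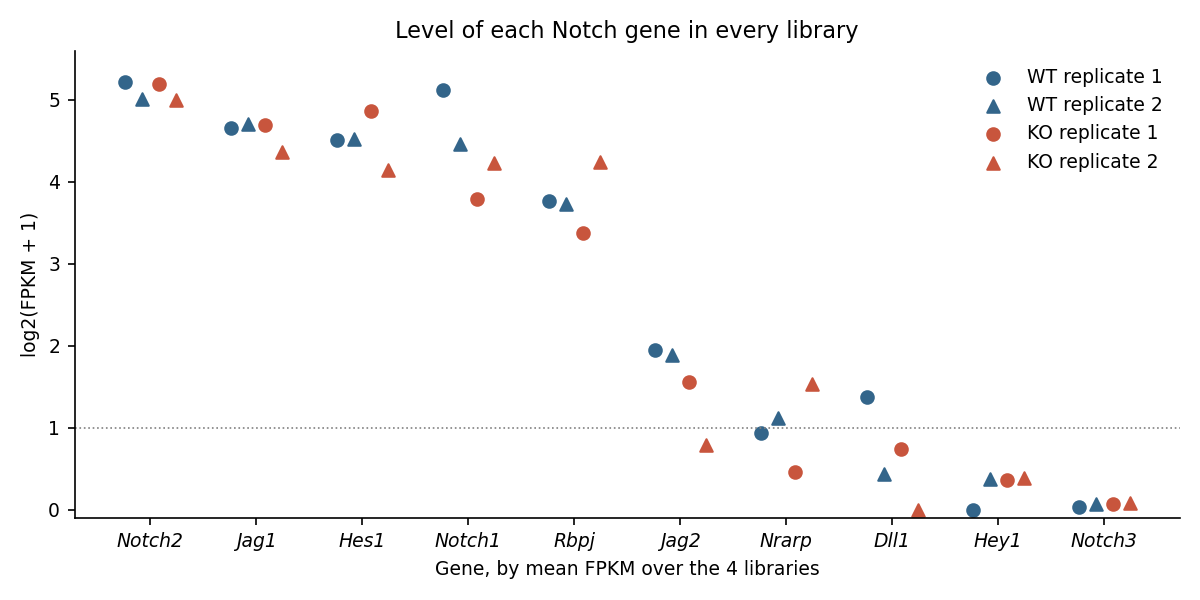
Level of each of the 10 Notch genes, as log2(FPKM + 1), in the 2 WT and 2 KO-labelled libraries, with 1 point per library. The dotted line marks 1 FPKM; Notch2 is highest by mean and Notch3, Hey1 and Dll1 lie at or near 0, apart from Dll1 in WT replicate 1.

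Between the groups, no Notch gene passed the test. The comparison asks which genes differ in AT2 cells labelled KO; limma was fitted to log2(FPKM + 1) over the 11055 genes that reached 1 FPKM in at least 2 libraries, with p-values adjusted over all of them. It called 0 of these genes (0%), with 535 (4.84%) under an unadjusted p of 0.05, and 0 of the 7 Notch genes tested, with 1 of the 7 at an unadjusted p under 0.05. Notch3, Dll1 and Hey1 did not reach the minimum. edgeR on fragment counts called 0 of 11705 genes (0%), with 372 (3.18%) under an unadjusted p of 0.05. It called 0 of the 8 Notch genes it tested, with 1 of the 8, Notch1, at an unadjusted p under 0.05. DESeq2 called 7 of 15326 (0.0457%), with 279 (1.82%) under an unadjusted p of 0.05, and none of its 7 was a Notch gene. Of the 7 tested, 6 were lower and 1 was higher in the KO-labelled libraries, with a median log2 difference of -0.034; over all genes tested 45.9% were lower and the median was 0.035. Both KO-labelled FPKM values lay below both WT values for 2 of the 7, Notch1 and Jag2, which is so for 15.1% of all genes tested. The KO-labelled libraries lay on opposite sides of both WT values for 3 of the 7, Rbpj, Hes1 and Nrarp, which is so for 30.4% of all genes tested. In CPM, fragment counts scaled to the library total with no length, both KO-labelled values were below WT for 3 of the 7, Notch1, Jag1 and Jag2 (17.1% of all genes tested), above WT for 0 (16.4%), and on opposite sides for the other 4, Notch2 included (33%). In sorted cells measured in bulk, fewer cells carrying a transcript and less of it per cell cannot be told apart.

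Notch1 (ENSMUSG00000026923, GRCm38 chromosome 2, 26457903 to 26516663, minus strand) encodes a receptor also known as an oncogene in T cell leukaemia. It measured 33.7 and 20.9 FPKM in WT against 12.9 and 17.7 FPKM in KO replicates 1 and 2. The groups did not overlap, and WT replicate 1 was the highest by far. The means were 27.3 ± 9 FPKM for WT and 15.3 ± 3.41 FPKM for the KO label (SD, n = 2 each). The fitted log2 difference, KO-labelled minus WT, was -0.77 (SE 0.306, 95% interval -1.53 to -0.024), with a limma unadjusted p of 0.045 and an adjusted p of 0.948.

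The size of the Notch1 difference rested on the unit. The table also gives counts per gene, and these are whole fragments times 1 constant per library, so fragments can be read back: Notch1 had 768 and 1370 fragments in WT and 1130 and 956 in KO replicates 1 and 2. Scaled to library totals, as CPM, this is 184 and 167 in WT against 119 and 135 in KO replicates 1 and 2. The groups were again apart: the 95% Poisson interval of the lower WT library, 158 to 176 CPM, lay above that of the higher KO-labelled one, 127 to 144 CPM. Such intervals cover counting error only, not the spread between mice. WT replicate 1 no longer stood out. There, 1000 deposited counts of Notch1 were worth 25.2 FPKM, against 17.3 in WT replicate 2 and 15.5 and 17.4 in KO replicates 1 and 2. FPKM per count thus differed 1.63-fold between libraries, while for Notch2 it differed by 1.01-fold. A difference of over 1.4-fold was found in 26.1% of the 10268 tested genes with at least 10 fragments in every library. With 1 length per gene, that is each count times the gene's median FPKM per count, the log2 difference of Notch1 was -0.44 (SE 0.196, 95% interval -0.93 to 0.047). Its limma unadjusted p was 0.069 and its adjusted p 0.999. With edgeR the log2 difference was -0.47 (edgeR unadjusted p = 0.036, adjusted p = 0.999). On deposited FPKM without WT replicate 1, limma gave -0.44 as well. Notch1 has 11 annotated transcripts, and 1.07 kb of its exons overlap 0610009E02Rik on the other strand; the kit keeps strand, but the sources used here do not say whether the counting used it.

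**Figure D2:**
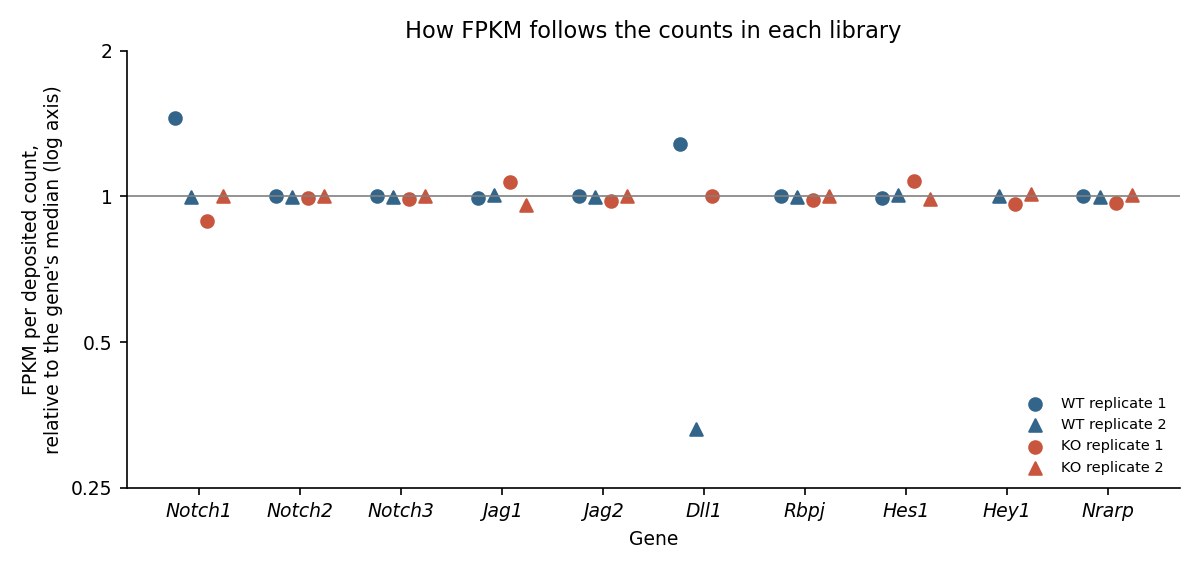
FPKM per deposited count for each gene and library, divided by the gene's median over the libraries, on a log axis. Notch1 stands high in WT replicate 1 and Dll1 is spread over 3.89-fold, while the other 8 genes stay near 1; libraries with no fragment of a gene have no point.

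Notch2 (ENSMUSG00000027878, chromosome 3, 98013527 to 98150361, plus strand), the receptor with the most RNA by mean level, measured 36.4 and 31.2 FPKM in WT against 35.7 and 30.9 FPKM in KO replicates 1 and 2. The groups overlapped, and each held 1 higher and 1 lower library. The means were 33.8 ± 3.64 and 33.3 ± 3.37 FPKM (SD, n = 2 each). The fitted log2 difference, KO-labelled minus WT, was -0.021 (SE 0.21, 95% interval -0.54 to 0.49, limma adjusted p = 0.992), and it turned to 0.079 without KO replicate 2 and to 0.086 without WT replicate 1. The share of Notch2 in the FPKM of the 4 receptor genes was 51.9% and 59.7% in WT and 73.3% and 63.5% in KO replicates 1 and 2. Both shares were higher than in WT, and since Notch1 FPKM enters them they carry the same dependence on its length.

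Notch3 (ENSMUSG00000038146, chromosome 17, 32120820 to 32166852, minus strand), the receptor of vascular smooth muscle and pericytes, was represented by 1 and 4 fragments in WT and by 5 and 4 in KO replicates 1 and 2. These correspond to 0.0251 to 0.0617 FPKM, and the Poisson intervals of all 4 libraries overlapped. Notch4, the endothelial receptor, measured 0.0319 and 0.0486 FPKM in WT against 0.0647 and 0 FPKM in KO replicates 1 and 2.

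Jag1 (ENSMUSG00000027276, chromosome 2, 137081456 to 137116644, minus strand) encodes the ligand with the most RNA. It measured 24.2 and 25.2 FPKM in WT against 24.9 and 19.6 FPKM in KO replicates 1 and 2. Only KO replicate 2 was outside the WT values. The fitted log2 difference, KO-labelled minus WT, was -0.15 (SE 0.222, 95% interval -0.70 to 0.39, limma adjusted p = 0.969), and without KO replicate 2 it was 0.012, the opposite sign. In CPM, Jag1 stood at 144 and 147 in WT, 142 in KO replicate 1 and 116 in KO replicate 2, where the interval of 108 to 124 lay below those of the other 3 libraries.

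Jag2 (ENSMUSG00000002799, chromosome 12, 112907819 to 112929776, minus strand), a second Jagged ligand, measured 2.86 and 2.7 FPKM in WT against 1.93 and 0.723 FPKM in KO replicates 1 and 2. Both KO-labelled values were below both WT values, and KO replicate 2 was the lowest. The means were 2.78 ± 0.116 and 1.33 ± 0.856 FPKM (SD, n = 2 each). The log2 difference on the FPKM + 1 scale, which understates changes of low genes, was -0.75 (SE 0.383, 95% interval -1.69 to 0.19, limma adjusted p = 0.948), and with edgeR it was -1.02 (adjusted p = 0.999). These values rest on 56 and 104 fragments in WT and on 91 and 23 in KO replicates 1 and 2. KO replicate 1, at 9.57 CPM (7.71 to 11.8), overlapped in counting error with both WT libraries, at 13.4 CPM (10.2 to 17.5) and 12.7 CPM (10.4 to 15.4), while KO replicate 2, at 3.25 CPM (2.06 to 4.88), did not. Leaving out KO replicate 2 brought the log2 difference to -0.37, and leaving out KO replicate 1 brought it to -1.13.

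Dll1 (ENSMUSG00000014773, chromosome 17, 15367354 to 15376872, minus strand), a Delta-like ligand, rested on 7 and 12 fragments in WT, 9 in KO replicate 1 and 0 in KO replicate 2. In CPM this was 1.68 and 1.46 in WT and 0.947 in KO replicate 1, and the count of 0 allows up to 0.425 CPM by a floor of 3 fragments (0.522 CPM by the exact Poisson interval) in KO replicate 2. All KO-labelled values were below WT, with intervals of WT and KO replicate 1 that overlapped. Its FPKM gave another order, 1.58 and 0.355 in WT and 0.673 and 0 in KO replicates 1 and 2, and FPKM per count differed 3.89-fold between libraries. edgeR, whose filter Dll1 passed, gave a log2 difference of -1.61 with an adjusted p of 0.999. The other Delta-like genes were lower still or as low: Dll3 was at 0.406 and 0.0825 FPKM in WT and stood at 0 in KO replicates 1 and 2, and Dll4, the endothelial ligand, measured 0.5 and 0.286 FPKM in WT against 0.992 and 0.376 FPKM in KO replicates 1 and 2.

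Markers of club cells, the secretory cells of the airway that Notch signalling maintains, are given beside Notch1 and Jag2. Their list was picked because its summed level moved with those genes, so the parallel follows from the choice. All 5 on the list used were lower by mean log2 FPKM under the KO label; Scgb1a1, Scgb3a1, Scgb3a2 and Cyp2f2 had overlapping groups, while Cbr2 measured 4198 and 3801 FPKM in WT against 2973 and 3003 FPKM in KO replicates 1 and 2. The summed level, most of it Cbr2, was 5524 and 4698 FPKM in WT against 4110 and 3816 FPKM in KO replicates 1 and 2, and the part of these cells in the Notch1 and Jag2 values was not tested. None of the 5 was under 1 FPKM in all libraries, but Scgb3a1 and Scgb3a2 were low. Scgb3a1 measured 8.41 and 2.26 FPKM in WT against 0 and 4.97 FPKM in KO replicates 1 and 2. For Scgb3a2 the values were 5.18 and 1.69 FPKM in WT against 1.83 and 2.67 FPKM. A lower sum in both KO-labelled libraries was not particular to club cells. The AT2 sum was 158980 and 152658 FPKM in WT against 106858 and 148104 FPKM in KO replicates 1 and 2, with 7 of 12 genes lower. The ciliated cell sum was 188 and 185.2 FPKM in WT against 171 and 184.8 FPKM. Most of it was Tubb4b, at 166 and 165 FPKM in WT against 149 and 168 FPKM in KO replicates 1 and 2. Of the 6 ciliated cell markers, 4 stayed under 1 FPKM in every library. Apart from basal cells, the sums of the remaining lists had overlapping groups. The 4 basal cell markers summed to at most 0.0876 FPKM.

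**Figure D3:**
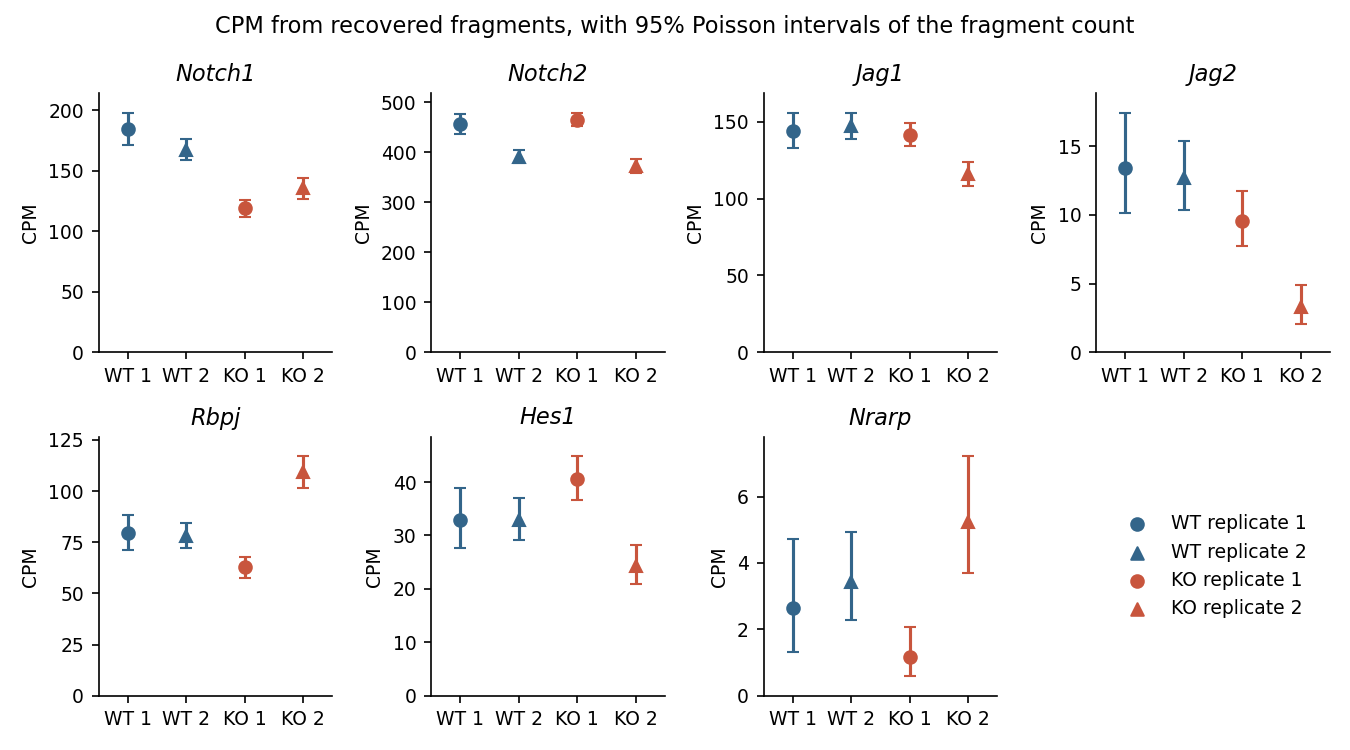
CPM of the 7 tested Notch genes in each library, with exact 95% Poisson intervals of the fragment count; each axis starts at 0. Notch1, Jag1 and Jag2 are lower in both KO-labelled libraries than in either WT one, and Notch2, Rbpj, Hes1 and Nrarp place the KO-labelled libraries on either side of WT.

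Sequences around an annotated start are shown for Notch1 and Jag2, the tested members with both KO-labelled libraries below WT in FPKM. That of Rbpj is added because its product is the factor through which Notch acts on genes. Each runs from 250 bases before to 50 bases after an annotated start, 5′ to 3′ along the gene, from RefSeq (GRCm38.p6). They cover chr2:26503773-26504072 (minus strand), chr12:112929446-112929745 (minus strand) and chr5:53590096-53590395 (plus strand). Each lies inside the span of its gene as given here, so the bases before the outermost start of the gene are not covered. Capitals mark matches to TGGGAA, the core that RBPJ is known to bind, searched on both strands, so that TTCCCA is the same core on the other strand.
Notch1: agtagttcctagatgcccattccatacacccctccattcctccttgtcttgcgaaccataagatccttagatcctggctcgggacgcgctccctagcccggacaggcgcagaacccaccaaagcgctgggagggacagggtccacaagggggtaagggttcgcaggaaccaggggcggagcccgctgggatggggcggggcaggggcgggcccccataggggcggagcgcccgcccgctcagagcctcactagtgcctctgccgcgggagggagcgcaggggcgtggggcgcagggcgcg
Jag2: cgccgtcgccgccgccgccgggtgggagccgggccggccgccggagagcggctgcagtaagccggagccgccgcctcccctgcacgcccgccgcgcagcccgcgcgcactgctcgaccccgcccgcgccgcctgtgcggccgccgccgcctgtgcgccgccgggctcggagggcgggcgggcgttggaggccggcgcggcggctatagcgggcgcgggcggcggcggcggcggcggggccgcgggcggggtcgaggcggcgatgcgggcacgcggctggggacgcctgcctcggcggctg
Rbpj: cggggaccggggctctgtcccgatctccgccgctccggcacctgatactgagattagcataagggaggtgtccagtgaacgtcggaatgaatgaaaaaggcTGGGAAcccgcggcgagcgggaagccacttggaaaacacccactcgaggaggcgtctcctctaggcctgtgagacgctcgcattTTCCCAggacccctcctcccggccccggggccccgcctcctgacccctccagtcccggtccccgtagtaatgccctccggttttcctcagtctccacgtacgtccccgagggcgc
The Rbpj window held 2 matches, which begin 149 and 65 bases before the start, 1 on each strand, and the Notch1 and Jag2 windows held none. Promoter windows were found for 8 of the 10 genes, 10 windows in all, since Rbpj and Dll1 have a pair each; Hes1 and Hey1 were not among them. Besides this window only the other Rbpj window, which overlaps it, held a match, and that was the same site as the one 65 bases before the start. Of all 32851 windows of 300 bases in the table, 25.6% held the core. The Notch1 window had 68.3% G and C and the Jag2 window 86%, against a median of 52.7% over all windows. A match of 6 letters is a description of the sequence only.

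Rbpj (ENSMUSG00000039191, chromosome 5, 53466152 to 53657362, plus strand) measured 12.6 and 12.3 FPKM in WT, while KO replicate 1 had 9.41 and KO replicate 2 had 18 FPKM. The WT libraries were close together, and the KO-labelled libraries lay below and above them. In CPM the intervals of the KO-labelled libraries, 57.8 to 67.9 and 102 to 117, did not overlap with each other or with those of WT, 71.1 to 88.5 and 72.2 to 84.5. The group means were 12.4 ± 0.189 and 13.7 ± 6.04 FPKM (SD, n = 2 each). The fitted log2 difference, KO-labelled minus WT, was 0.065 (SE 0.331, 95% interval -0.75 to 0.88, limma adjusted p = 0.988), which became -0.37 on leaving out KO replicate 2 and 0.50 on leaving out KO replicate 1. Of its transcript sequence, 8.14% of 100-base stretches also occur in transcripts of other genes, which could affect its counts; for Notch2 the share was 2.37% and for the other 8 genes 0%.

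Hes1 (ENSMUSG00000022528, chromosome 16, 30064384 to 30067796, plus strand), a transcriptional repressor and the most widely used readout of Notch activity, was the target with the most RNA. It measured 21.7 and 22 FPKM in WT, while KO replicate 1 had 28.2 and KO replicate 2 had 16.6 FPKM. The KO-labelled libraries again lay on either side of WT, here with KO replicate 1 as the higher. The CPM intervals of the KO-labelled libraries, 36.7 to 44.9 and 20.8 to 28.3, were apart from each other but both overlapped with an interval of WT, 27.6 to 38.9 and 29.1 to 37.1. The group means were 21.9 ± 0.207 and 22.4 ± 8.14 FPKM (SD, n = 2 each). The fitted log2 difference, KO-labelled minus WT, was -0.012 (SE 0.291, 95% interval -0.73 to 0.70, limma adjusted p = 0.996), which became 0.35 on leaving out KO replicate 2 and -0.37 on leaving out KO replicate 1.

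Nrarp (ENSMUSG00000078202, chromosome 2, 25180758 to 25183339, plus strand), a target whose protein feeds back to restrain Notch signalling, measured 0.911 and 1.18 FPKM in WT, while KO replicate 1 had 0.374 and KO replicate 2 had 1.89 FPKM. The direction within the KO-labelled pair was that of Rbpj and opposite to that of Hes1. It rested on 11 and 28 fragments in WT and on 11 and 37 in the KO-labelled libraries. The CPM intervals of the KO-labelled libraries, 0.578 to 2.07 and 3.69 to 7.22, were apart from each other. The fitted log2 difference, KO-labelled minus WT, was -0.034 (SE 0.47, 95% interval -1.19 to 1.12, limma adjusted p = 0.995), and with edgeR it was 0.04, the opposite sign. Its single exon overlaps the antisense gene Gm38287 over 2.05 kb.

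The other targets had almost no RNA. Hey1 (ENSMUSG00000040289, chromosome 3, 8663359 to 8667256, minus strand), a repressor related to Hes1, had 0 and 6 fragments in WT and 7 and 5 in KO replicates 1 and 2, and the count of 0 in WT replicate 1 allows up to 0.72 CPM by the same floor (0.885 CPM by the exact Poisson interval), against 0.708 to 0.736 CPM in the other libraries. A difference of Hey1 was thus not detectable at this depth. Heyl measured 1.18 and 0.208 FPKM in WT against 0.852 and 0.558 FPKM under the KO label, Hes7 measured 0.366 and 0.185 FPKM in WT against a listed 0 in both KO-labelled libraries, Hey2 was listed at 0 in all but WT replicate 2 (0.0424 FPKM), and Hes5 was listed at 0 in all 4 libraries. Rbpj, Hes1 and Nrarp all had their extremes in the KO-labelled libraries. KO replicate 1 was also the library with skeletal muscle RNA, and the part of that RNA in these values was not tested.

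**Figure D4:**
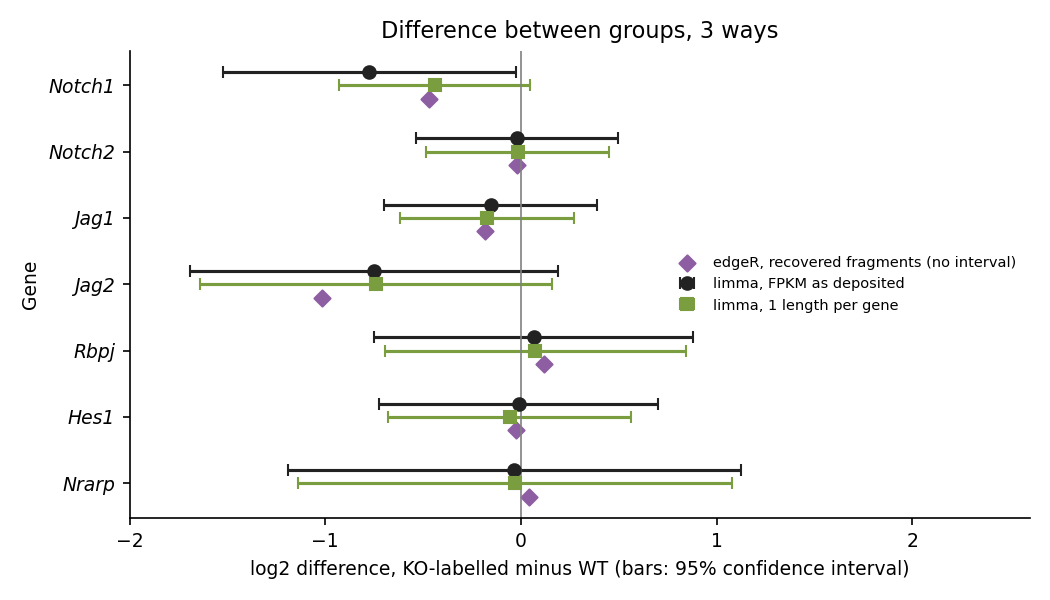
The log2 difference, KO-labelled minus WT, of the 7 tested Notch genes from limma on deposited FPKM and from limma with 1 length per gene, both with 95% confidence intervals, and from edgeR on recovered fragments, with no interval drawn. The Notch1 difference is -0.77, -0.44 and -0.47 in that order, and the other genes move less between the first pair.

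Genes of the wider pathway lay on both sides of 0. Of 47 further pathway genes in 9 lists by role, 36 were tested, 18 were lower and 18 higher, with a median log2 difference of 0.0013. None passed limma's test (0 of 36, 0% over all genes tested) and 2, Psenen and Aph1a, had an unadjusted p under 0.05. edgeR tested 38 and called 0, with 4 at an unadjusted p under 0.05, Psenen, Aph1a, Numb and L3mbtl3 (3.18% of all genes it tested). Both KO-labelled values were below both WT values for 6 of the 36 (15.1% of all genes tested) and above them for 4 (20%).

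Psenen and Aph1a belong to the receptor proteases, of which 6 were lower and 4 higher with a median of -0.11. Psenen, a small subunit of the gamma-secretase complex, measured 67.4 and 57.5 FPKM in WT against 37.2 and 44.1 FPKM in KO replicates 1 and 2. The groups did not overlap, and their log2 difference came to -0.61 (SE 0.209, limma adjusted p = 0.948), or -0.54 with edgeR. Aph1a, another subunit, measured 19.6 and 21.8 FPKM in WT against 8.95 and 14 FPKM in KO replicates 1 and 2. Here too the KO-labelled libraries were both lower, with a log2 difference of -0.82 (SE 0.275, limma adjusted p = 0.948), or -0.69 with edgeR; its locus in the table holds 26 genes, so its values are uncertain. Psen2 and nicastrin, further subunits, had overlapping groups: Psen2 measured 18.7 and 12.2 FPKM in WT against 11.7 and 14.5 FPKM under the KO label, and Ncstn measured 31.7 and 26.1 against 27.2 and 29.5 FPKM (both were chosen after their values were seen).

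Of 3 tested receptor glycosyltransferases 2 were lower, and Rfng measured 12.6 and 10.4 FPKM in WT against 12.5 and 6.39 FPKM under the KO label, and Pofut1, which adds the O-fucose that ligand binding needs, measured 8.15 and 4.08 against 4.77 and 5.98 FPKM. Of 4 ligand ubiquitin ligases 3 were lower. Neurl1a measured 2.05 and 1.58 FPKM in WT against 1.06 and 1.11 FPKM under the KO label. Mib1, which drives ligand endocytosis, measured 26.9 and 24.7 against 26.4 and 29 FPKM. In CPM, Mib1 measured 228 and 243 in WT against 151 and 261 in KO replicates 1 and 2. Its FPKM per count differed 1.78-fold between libraries. Of 7 genes of receptor trafficking and turnover 4 were lower. Numbl measured 2.99 and 3.27 FPKM in WT against 2.13 and 1.97 FPKM under the KO label, and Itch, a ubiquitin ligase, measured 21.4 and 23.8 against 27.1 and 29.1 FPKM. Neither group pair overlapped in FPKM. In CPM, Itch measured 112 and 114 in WT against 99.2 and 145 in KO replicates 1 and 2, on either side of WT, and its log2 difference was 0.11 with edgeR against 0.30 on FPKM. Numb, an inhibitor of Notch signalling, showed the reverse and was chosen after its values were seen. It measured 7.7 and 7.04 FPKM in WT against 10.5 and 7.03 FPKM, groups that overlapped, but 19.7 and 15.4 CPM in WT against 38.2 and 26.7 CPM in KO replicates 1 and 2. FPKM per count of Numb differed 1.80-fold between libraries. Its log2 difference was 0.20 on FPKM (limma adjusted p = 0.969), 0.78 with 1 length per gene (limma adjusted p = 0.999) and 0.89 with edgeR (unadjusted p = 0.0169, adjusted p = 0.999).

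Among nuclear components more genes were higher than lower by sign, as held over all genes tested, of which 45.9% were lower. In the transcription complex 5 of 6 further genes were higher than in WT by sign, as was Rbpj, within a range of -0.13 to 0.20, and 0 of them passed the test. Snw1 measured 15.6 and 16.8 FPKM in WT against 19.7 and 17.5 FPKM under the KO label, and the coactivator Maml2 measured 2.75 and 3.83 against 4.55 and 3.29 FPKM. Of 6 corepressors 4 were higher, with a median of 0.17. In FPKM, the KO-labelled libraries lay on opposite sides of both WT values for 3 of these 6. That was so for 3 of the 6 further complex genes too, against 30.4% of all genes tested. L3mbtl3, a chromatin reader that binds RBPJ, measured 2.88 and 2.42 FPKM in WT against 4.67 and 4.94 FPKM in KO replicates 1 and 2. Both KO-labelled libraries were higher, by 0.67 on the log2 scale (SE 0.279, limma adjusted p = 0.948), or 0.71 with edgeR. Kdm5a, a histone demethylase, measured 17.3 and 23.4 FPKM in WT against 29.5 and 20.6 FPKM under the KO label, which overlapped.

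**Figure D5:**
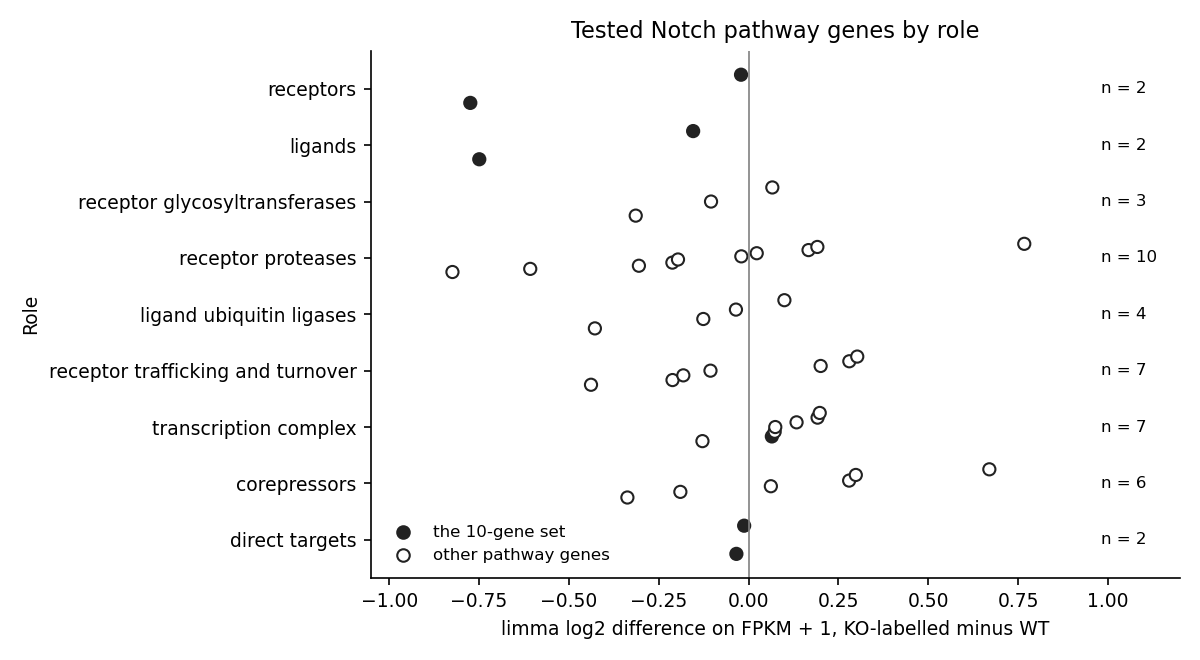
The limma log2 difference of each tested pathway gene by role, with filled points for the 10-gene set and open points for other pathway genes; n is the number tested per role. Roles spread to both sides of 0, with Notch1, Jag2, Aph1a and Psenen furthest to the left and Aph1c and L3mbtl3 furthest to the right. Aph1c, listed under receptor proteases and named for its place here, measured 1.38 and 1.99 FPKM in WT against 1.37 and 7.67 FPKM in KO replicates 1 and 2.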

How the data were processed

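Stranded libraries were built from 1 µg of RNA without ribosomal RNA and read over 150 cycles, per the labels' protocols. Tools named, per the submitters' processing notes, are HISAT2 2.0.4, cutadapt 1.9.3, Cufflinks and Cuffdiff 2.2.1, with mm10. The deposited table gives the authors' FPKM per library, per the file headers; which lengths and totals were used, the sources used here do not say. It also gives deposited counts, which are estimated counts scaled by 1 constant per library; dividing by it made 90.9% to 92.6% of positive values whole within 0.05, and the rest were rounded. All 10 genes described were whole in every library.

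Groups came from sample titles. The main test was limma-trend 3.58.1 (R 4.3.3) on log2(FPKM + 1), two-sided, with Benjamini-Hochberg adjustment at 0.05 and no covariate. This follows an FPKM design although counts were present; edgeR 4.0.16 (quasi-likelihood, TMM) and DESeq2 1.42.0 were run on recovered fragments. Alternatives covered pseudocount, filter, scaling, replicate block and leaving out each library; the fit with 1 length per gene was added after seeing the data. The procedure was checked on simulated data in which each gene had 1 length in all libraries. That check therefore does not cover differences in FPKM per count between libraries. Members, lists and tests were chosen with earlier results of these data known. Genes named are the 10, Fbxo45, Fbxo46, further receptors, ligands and targets, and up to 2 per other pathway list by smallest p. Marker lists numbered 10. Their summed FPKM in the remaining lists was 630 to 972 for AT1 cells, 171 to 188 for ciliated cells, 15.4 to 38.8 for fibroblasts, 1.41 to 3.24 for leukocytes and 0.926 to 13.1 for smooth muscle and pericytes. Coordinates are 1-based, from GENCODE M21 (GRCm38, also called mm10).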

Additional observations from a re-analysis of the deposited data

How the results depend on the processing

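The count of called genes was 0 with limma and moved to 5 with edgeR without a filter and to 7 with DESeq2; leaving out 1 library gave 0 to 134, with 134 without KO replicate 2 and 3 without WT replicate 2, where the spread of the lone library is taken from the other pair. No Notch gene of the 10 was called under any alternative. Of the Notch genes tested in each alternative, 4 to 7 were lower. This was 4 of 5 with a minimum of 5 FPKM and 4 of 7 without KO replicate 2. It was 6 of 8 with edgeR (TMM) and 7 of 10 with limma without a filter. The main fit had 6 of 7, beside 45.9% of all genes tested. Notch1 and Jag2 were lower in all of their alternatives, Notch1 between -1.10 and -0.44 and Jag2 between -1.15 and -0.37. Both KO-labelled values of each gene lay below both WT values, so leaving out a library could not turn these signs. Leaving out 1 library turned the sign of several genes, with ranges of -0.13 to 0.086 for Notch2, -0.32 to 0.012 for Jag1, -0.37 to 0.50 for Rbpj, -0.37 to 0.35 for Hes1, -0.57 to 0.50 for Nrarp, -0.53 to 0.32 for Pofut1 and -0.75 to 0.12 for Rfng. On fragments Nrarp was at 0.040 (edgeR, TMM), 0.050 (RLE), 0.041 (no filter) and 0.063 (DESeq2), and Mib1 at -0.20, -0.19, -0.20 and -0.20 in that order. With 1 length per gene Mib1 was at -0.23, against 0.10 in the main fit. FPKM per count of Mib1 differed 1.78-fold between libraries, and the cause of these changes was not tested. With the replicate number as a block limma called 0 genes and the member differences kept their values. The numbers are not said to mark shared animals, and the replicate 1 minus replicate 2 differences of WT and KO correlated at 0.026, so samples share only a number. With 2 libraries per group, precision is limited: the 95% interval of Nrarp spans -1.19 to 1.12.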
